A study of Mus musculus with 18 samples.

Results

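The genes described here are 10 markers of fat cells, Adipoq, Lep, Retn, Cfd, Plin1, Plin4, Cidec, Fabp4, Lpl and Car3, read in the skin of mice that received PBS or one of the detergents A and B. They were chosen by name from a list, with earlier results of these data known. They are 10 of the 41605 Ensembl gene IDs in the count tables. All 10 were found and all 10 passed the filter on low counts, which kept 16836 genes. The mice were C57BL/6 animals of 8-12 weeks, total RNA of whole skin sections was sequenced, and each of the 3 treatments (PBS, which is phosphate-buffered saline and served as the control, Detergent A and Detergent B) has 6 libraries. Labels give no dose, duration, skin site or identity of the detergents. They also do not say that each library is its own animal, so the spread behind each p-value is that of the libraries and may be technical.

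White fat cells of the skin lie below the dermis as a layer of dermal white adipose tissue, with a sheet of skeletal muscle, the panniculus carnosus, beneath it in mice. They store triglyceride in a single large lipid droplet and release hormones and complement factors. In mouse skin this layer is known to thicken while hair follicles grow and to thin while they rest, which is why the genes were also set against hair keratins, the structural proteins of the growing hair shaft. Mature fat cells share the transcription factors PPARG and the C/EBP family, which drive most of the genes listed here.

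To show what the start regions of these genes hold, the 250 bases upstream of each RefSeq transcription start (GRCm38.p6) were searched on both strands for motifs of these factors. Sequences were found for 7 of the 10 genes, with 8 start sites. There were none for Fabp4, Lpl and Car3, so the counts of motifs say nothing about those genes. TTGCNNAA, a core shared by many C/EBP sites, occurred in 3 of the 8 windows against 9.56% of all 32851 windows of that length. AGGTCA, the half-site of nuclear receptors such as PPARG, occurred in 0 of 8 against 14% of all windows, and its direct repeat with a single spacer base in 0 of 8 against 0.0335%. The general promoter motifs TATAAA and CCAAT occurred in 0 and 2 of 8, against 12.4% and 33.8%. The repeat contains the half-site, so those counts are nested. The 3 windows with a TTGCNNAA match are printed 5′ to 3′ on the gene's strand, with the matches in capitals, to show where each match lies.
Lep, chr6:29059971-29060220, strand +: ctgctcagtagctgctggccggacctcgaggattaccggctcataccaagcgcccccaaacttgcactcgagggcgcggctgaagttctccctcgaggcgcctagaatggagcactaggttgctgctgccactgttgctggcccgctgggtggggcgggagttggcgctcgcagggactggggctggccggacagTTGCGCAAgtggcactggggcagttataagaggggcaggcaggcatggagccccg
Plin1, chr7:79732777-79733026, strand -: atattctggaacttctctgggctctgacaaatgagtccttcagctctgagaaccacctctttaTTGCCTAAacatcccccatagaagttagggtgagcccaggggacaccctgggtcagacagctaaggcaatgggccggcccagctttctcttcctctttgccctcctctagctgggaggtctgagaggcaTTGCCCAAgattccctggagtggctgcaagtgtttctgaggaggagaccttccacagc
Cidec, chr6:113434765-113435014, strand -: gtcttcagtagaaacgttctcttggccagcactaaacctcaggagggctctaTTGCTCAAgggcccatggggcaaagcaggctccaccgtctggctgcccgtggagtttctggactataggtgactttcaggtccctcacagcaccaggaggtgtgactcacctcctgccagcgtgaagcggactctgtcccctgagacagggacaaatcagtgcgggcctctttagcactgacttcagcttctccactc
The Lep match reads the same on both strands and begins at position -55, counted from the first transcribed base as +1. Plin1 held matches at -187 and -58, and Cidec held 1 at -198 of its second start site. These are matches of letters and not measurements of binding.

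Total counts ranged from 17312623 to 29599018 per library. The keratinocyte markers Krt5, Krt14, Krt1 and Krt10 and all 5 fibroblast markers were detected in every group. Levels are given as CPM, the count per library divided by a library size that was scaled by the TMM method, and multiplied up to a fixed total. The TMM factors were 0.988 to 1.091 with PBS, 0.909 to 1.071 with Detergent A and 0.926 to 1.041 with Detergent B. Of 7 brown fat markers, Ucp1, which defines that cell type, stayed between 0 and 0.515 CPM. The other 6 were detected, with 0 of 6 tested passing in any comparison. The sum over the list ranged from 248 to 407 CPM with PBS, 317 to 627 CPM with Detergent A and 312 to 655 CPM with Detergent B. The highest of them, Elovl3 and Cidea, at means of 264 and 89.8 CPM, are also on a list of 8 markers of sebaceous gland cells. The sum of those 8 ranged from 2091 to 3075 CPM with PBS. It was 2249 to 3815 CPM with Detergent A and 2567 to 3561 CPM with Detergent B. The part of sebaceous glands in the brown fat sum was not tested. Adipoq and Plin1, which few other cells make, were at 48.2 CPM or more and 25.7 CPM or more in all 18 libraries. In bulk skin, fewer fat cells and less RNA per fat cell cannot be told apart.

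Levels of different genes were compared per kilobase of exon (RPKM), and for 3 of the 10 genes the value depended on which annotated transcripts set the length. With the merged exons of all transcripts, Car3 was at 416 ± 107 RPKM, Fabp4 at 61.9 ± 10.8 RPKM and Lpl at 38.3 ± 8.55 RPKM (SD, n = 18). For Fabp4 those exons add up to 4489 bases, which is the whole span of the gene with its introns, because a retained-intron transcript is among them. With the exons of protein-coding transcripts only, a choice made after seeing the data, the lengths of Fabp4, Lpl and Car3 were 896, 4115 and 1679 bases and the lengths of the other 7 genes stayed the same.

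On that second scale Car3 was the highest, at 709 ± 183 RPKM. Cfd (373 ± 117) and Fabp4 (310 ± 54.1 RPKM) followed and did not differ beyond their spread. Lpl was at 97.4 ± 21.8 RPKM and Adipoq at 58.5 ± 14.6 RPKM. Cidec (38.3 ± 8.74), Retn (33.8 ± 14.7) and Plin4 (30 ± 3.3 RPKM) came next, with overlapping spreads. Plin1 was at 10.5 ± 2.13 and Lep, the lowest on both scales, at 6.89 ± 2.87 RPKM.

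The variation between libraries also differed from gene to gene on the CPM scale. Retn and Lep varied most, with a coefficient of variation of 43.4% and 41.7% over the 18 libraries and ratios of highest to lowest of 5.34 and 6.88. Plin4 varied least, at 11%, with a ratio of 1.54. The other 7 genes had coefficients of variation of 17.4% to 31.3%.

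**Figure D1:**
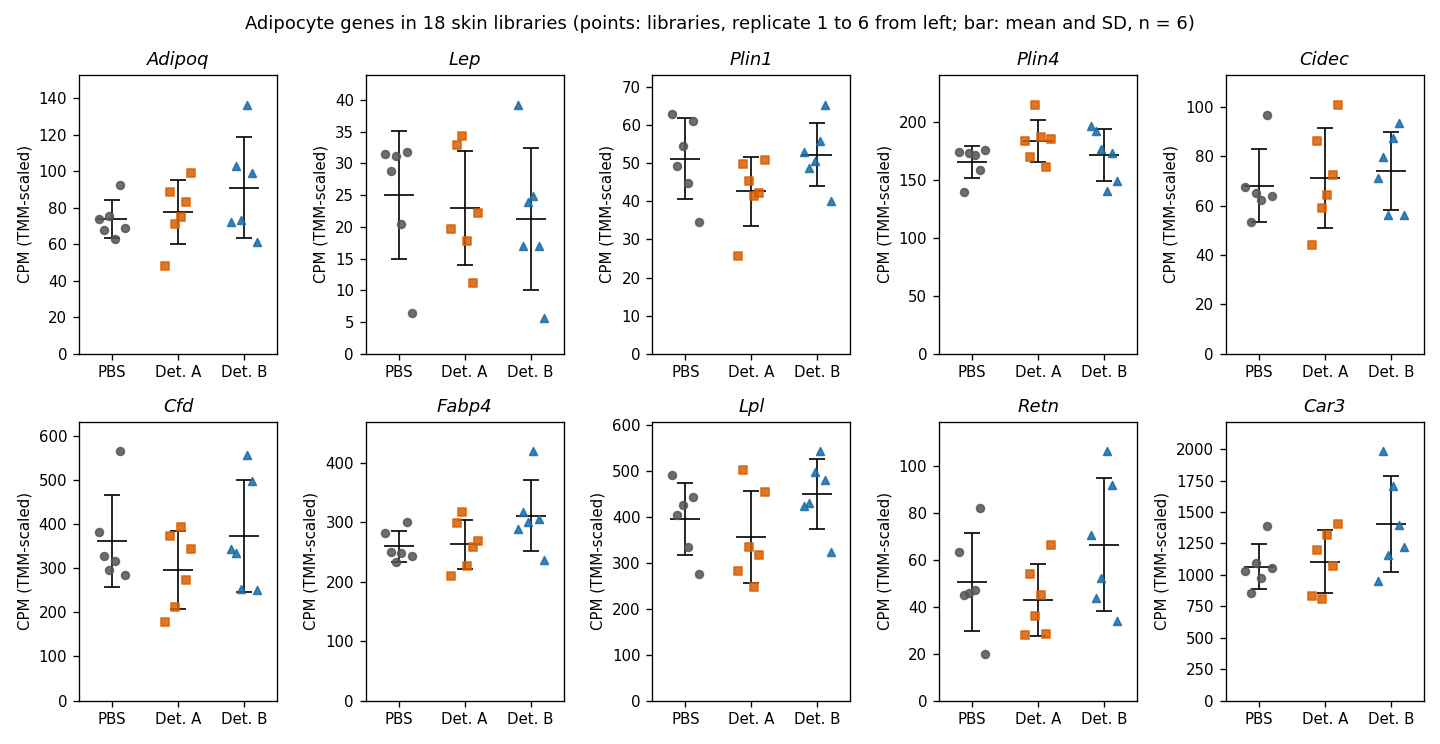
Level of each of the 10 genes in CPM on TMM-scaled library sizes (vertical axes, from 0), by treatment, with 1 point per library and the mean and SD of 6 libraries as bars. The 3 treatments overlap for every gene, and Lep in PBS replicate 6, at 6.37 CPM, lies far below the other PBS libraries.

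The series compares skin treated with each detergent with PBS skin. None of the 10 genes passed an adjusted p of 0.05 in edgeR's quasi-likelihood test for Detergent A, with adjusted p-values from 0.385 to 0.956, against 0.19% of all 16836 genes called. None reached an unadjusted p of 0.05, against 18.8% of all genes. For Detergent B none of the 10 passed either, with adjusted p-values from 0.19 to 0.933, against 3.05% of all genes. Of the 10, 2 (Fabp4 and Car3) had an unadjusted p under 0.05, against 23.3% of all genes. For Detergent B against Detergent A none passed (adjusted p = 0.989 for each, 0% of all genes called, 550 genes at an unadjusted p under 0.05). The groups of 6 separated without overlap for 0 of the 10 genes in each comparison, against 1.36% of all genes for Detergent A, 2.85% for Detergent B and 0.0594% between the detergents.

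The median log2 fold change of the 10 genes was -0.05 for Detergent A and 0.15 for Detergent B, beside -0.01 over all genes tested in both. Fold changes against PBS were above 1 for 5 of the 10 genes with Detergent A and for 9 with Detergent B. Both comparisons use the same PBS libraries. A missed threshold does not show equality, so the intervals matter. With Detergent A the 95% intervals of all 10 folds lay between 0.522 and 1.62. With Detergent B they lay between 0.481 and 2.07, and between 0.732 and 1.705 when the 2 most variable genes, Lep and Retn, are set aside.

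**Figure D2:**
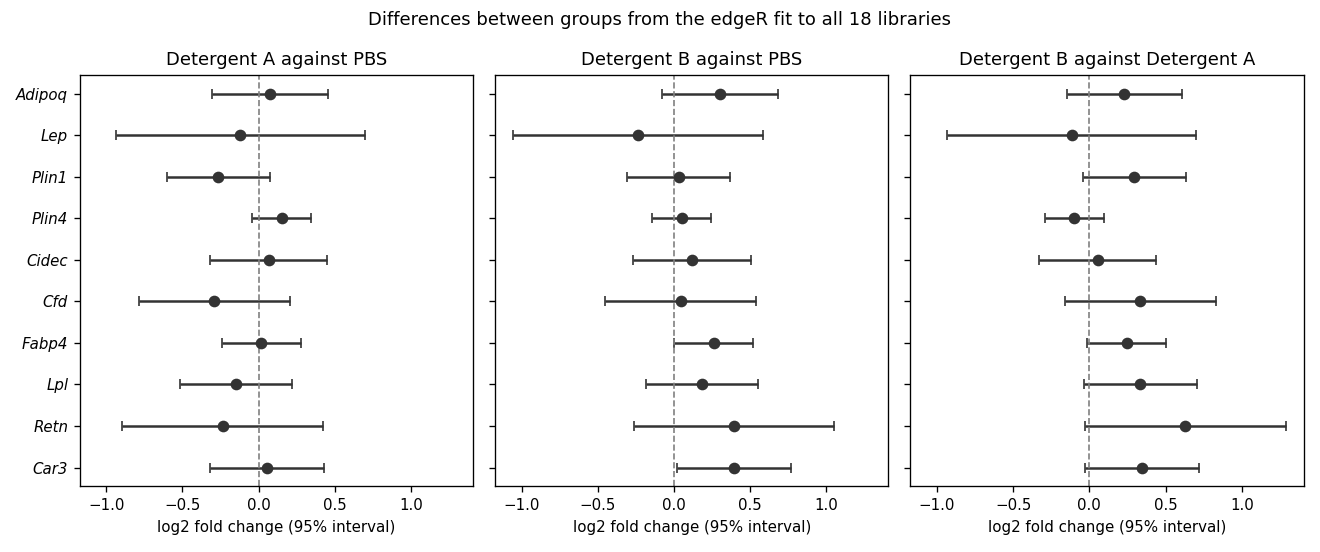
Log2 fold change of each gene (points) with its 95% interval (bars) from the edgeR fit to all 18 libraries, for the 3 comparisons between treatments. All 10 intervals cross 0 for Detergent A and for Detergent B against Detergent A, while those of Fabp4 and Car3 lie just above 0 for Detergent B against PBS before adjustment.

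Among the secreted products, Adipoq encodes adiponectin, a hormone made almost only by fat cells. Adipoq (ENSMUSG00000022878, chromosome 16 from 23146536 to 23158028, GRCm38) had a lowest, median and highest level of 63.2, 71.4 and 92.7 CPM with PBS. The values were 48.2, 79.2 and 99 CPM with Detergent A and 61.1, 86.4 and 137 CPM with Detergent B. Of the Detergent B libraries, 3 lay above every PBS library, and replicate 6 lay below all of them. The log2 fold change was 0.07 ± 0.18 for Detergent A and 0.3 ± 0.18 (SE) for Detergent B, with adjusted p-values of 0.859 and 0.318 (edgeR).

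Lep encodes leptin, the satiety hormone whose level follows the fat content of the cell. Lep (ENSMUSG00000059201, chromosome 6 from 29060220 to 29073877) had a lowest, median and highest level of 6.37, 30 and 31.8 CPM with PBS. They were 11.1, 21 and 34.3 CPM with Detergent A and 5.71, 20.5 and 39.3 CPM with Detergent B. The lowest values were PBS replicate 6 and Detergent B replicate 6, with the next library at 11.1 CPM, so low Lep occurred in control and treated skin. The means were 25 ± 10.1, 23 ± 9.01 and 21.3 ± 11.2 CPM (SD, n = 6). The folds were 0.92 (95% interval 0.522 to 1.62) for Detergent A and 0.848 (0.481 to 1.5) for Detergent B, with adjusted p-values of 0.897 and 0.748 (edgeR). With the hair keratin score described further on as a covariate, the log2 values turned from -0.12 to 0.56 for Detergent A and from -0.24 to 0.46 for Detergent B, also without passing (adjusted p = 0.6635 and 0.7545, edgeR). That score reached 4.94 with PBS, 3.5 with Detergent A and 2.55 with Detergent B, with lowest values of 0.14, -2.4 and -2.02. Score and treatment are thus partly confounded, and their parts in these values cannot be fully told apart.

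Retn encodes resistin, in mice a hormone of fat cells. Its lowest, median and highest levels were 19.9, 46.5 and 82.2 CPM with PBS, 27.9, 40.6 and 66.2 CPM with Detergent A, and 33.8, 61.4 and 106 CPM with Detergent B. For Retn, PBS replicate 6 was the lowest of all 18 libraries. Detergent B was 1.55-fold above Detergent A (95% interval 0.979 to 2.44), the largest difference between the detergents among the 10 genes, with 5 of 6 libraries above the Detergent A mean and an adjusted p of 0.989 by edgeR.

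Cfd encodes complement factor D, or adipsin, the protease that starts the alternative complement pathway. It was at 362 ± 105 CPM with PBS, 296 ± 88.8 CPM with Detergent A and 373 ± 127 CPM with Detergent B (SD, n = 6). The lowest library was Detergent A replicate 1 at 178 CPM and the highest PBS replicate 5 at 566 CPM. Its fold was 0.817 for Detergent A (adjusted p = 0.52) and 1.03 for Detergent B (adjusted p = 0.933, edgeR).

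Among the proteins that coat the lipid droplet, Plin1 encodes perilipin, which guards stored fat from lipases. Plin1 (ENSMUSG00000030546, chromosome 7 from 79720218 to 79732903) had a lowest, median and highest level of 34.5, 51.8 and 62.8 CPM with PBS. They were 25.7, 43.8 and 51 CPM with Detergent A and 40.1, 51.8 and 65.4 CPM with Detergent B. With Detergent A 5 of 6 libraries lay below the PBS mean, but the difference of -0.26 ± 0.16 (SE) on the log2 scale did not pass (adjusted p = 0.385, edgeR). Detergent A replicate 1 held the lowest value.

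Cidec encodes a protein that fuses small droplets into the single large one. It was at 68.1 ± 14.8 CPM with PBS, 71.2 ± 20.2 CPM with Detergent A and 74 ± 15.7 CPM with Detergent B (SD, n = 6), and the folds were 1.05 and 1.09 (adjusted p = 0.88 and 0.729, edgeR).

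Plin4 encodes a perilipin of small, newly formed droplets that is also made outside fat cells. It had the narrowest spread, at 165 ± 14.1 CPM with PBS, 183 ± 18.2 CPM with Detergent A and 171 ± 22.4 CPM with Detergent B (SD, n = 6). Its intervals were the tightest of the 10 genes, with a fold of 1.11 (95% interval 0.971 to 1.27) for Detergent A and 1.04 (0.906 to 1.18) for Detergent B. The 3′ ends of Plin4 and Hdgfl2, on the opposite strand, overlap by 17 bases.

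Among the genes of lipid uptake, Lpl encodes lipoprotein lipase, which frees fatty acids from lipoproteins in the blood. Its lowest, median and highest levels were 276, 415 and 492 CPM with PBS, 248, 326 and 503 CPM with Detergent A, and 324, 455 and 543 CPM with Detergent B. With Detergent A 4 of 6 libraries lay at or below 336 CPM and the other 2 at 455 and 503 CPM. The fold was 0.9 for Detergent A (adjusted p = 0.67) and 1.14 for Detergent B (adjusted p = 0.546, edgeR).

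Fabp4 encodes the fatty acid carrier protein of fat cells. It was at 260 ± 25.9 CPM with PBS, 263 ± 41.5 CPM with Detergent A and 311 ± 59.9 CPM with Detergent B (SD, n = 6). Detergent B was above the PBS mean in 5 of 6 libraries, with a fold of 1.2 (95% interval 1.001 to 1.435), an unadjusted p of 0.0487 and an adjusted p of 0.212 by edgeR. Macrophages and blood vessels also make Fabp4 and Lpl. The summed level of 7 macrophage markers ranged from 534 to 1001 CPM with PBS, 248 to 945 CPM with Detergent A and 472 to 1366 CPM with Detergent B. That of 7 endothelial markers ranged from 98.7 to 188 CPM, 110 to 170 CPM and 109 to 205 CPM. All 14 of these markers were detected, and their part in the values of Fabp4 and Lpl was not tested.

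Car3 encodes carbonic anhydrase 3, abundant in fat cells and also in skeletal muscle. Car3 (ENSMUSG00000027559, chromosome 3 from 14863512 to 14872523) had a lowest, median and highest level of 854, 1041 and 1387 CPM with PBS. They were 805, 1133 and 1407 CPM with Detergent A and 948, 1310 and 1981 CPM with Detergent B. Detergent B was above the PBS mean in 5 of 6 libraries, with a fold of 1.315 (95% interval 1.015 to 1.705) and an adjusted p of 0.19 by edgeR. In limma with library quality weights it was the 1 gene of the 10 to pass, with a log2 fold change of 0.44 (adjusted p = 0.0463), where that tool called 30.1% of all genes. With a skeletal muscle score as a covariate the edgeR value was 0.21 on the log2 scale in place of 0.4 (adjusted p = 0.252).

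That muscle score was the mean log2 CPM of 12 muscle genes, among them Acta1, Myh1, Ckm and Atp2a1. Across the 18 libraries Car3 followed it with a Pearson r of 0.876 (adjusted p = 0.0004) and a Spearman rho of 0.816 (adjusted p = 0.0018), by permutation and adjusted over the 20 relations of 10 genes with 2 scores. Leaving out the 2 libraries whose score was farthest from the median gave r = 0.819, and centring each group on its mean gave r = 0.882. Within the groups of 6 it was 0.872 with PBS, 0.797 with Detergent A and 0.965 with Detergent B (exact permutation p = 0.0181, 0.0278 and 0.00556, adjusted over 60 such relations 0.222, 0.238 and 0.222). Summed muscle markers ranged from 5890 to 11580 CPM with PBS, 5492 to 11920 CPM with Detergent A and 7407 to 16240 CPM with Detergent B. All 12 muscle markers were detected, and 0 of 12 passed in any comparison of the groups.

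The other 9 genes did not pass against the muscle score. Adipoq, Cidec and Cfd had r = 0.544, 0.503 and 0.514 (adjusted p = 0.126 for each, permutation), and Lep, in the other direction, -0.42 (adjusted p = 0.264). Plin1, Plin4, Fabp4, Lpl and Retn lay between -0.286 and 0.197.

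The genes were then set against hair keratins, read as the mean log2 CPM of 10 hair shaft keratins. The score was from 0.14 to 4.94 with PBS, from -2.4 to 3.5 with Detergent A and from -2.02 to 2.55 with Detergent B. PBS replicate 6 was the PBS library at 0.14, and the other 5 were at 2.53 or more. All hair shaft and root sheath genes together took 0.002% to 0.986% of the counts of a library. None of the 10 keratins passed for either detergent, with medians of -2.02 and -2.77 on the log2 scale for Detergent A and Detergent B. Neighbouring libraries differed by at most 1.54 in the score, against a range of 7.35 and a next gap of 1.1, so the libraries were treated as 1 series.

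None of the 10 genes passed against the hair score. Lep came closest, with a Pearson r of 0.535 (p = 0.0206, adjusted p = 0.126) and a Spearman rho of 0.6 (p = 0.00964, adjusted p = 0.0964), by permutation over 18 libraries. Leaving out the 2 libraries whose score was farthest from the median gave 0.49, and centring on the group means 0.598 (adjusted p = 0.0978). The low-Lep libraries were among those of low or middle score, while Detergent A replicate 3, at 34.3 CPM, had high Lep with a score of -0.95. Lpl had r = 0.408 (adjusted p = 0.264) and 0.608 when centred on the group means (adjusted p = 0.132). Adipoq, Cidec, Cfd, Fabp4, Plin1, Plin4 and Retn had r between -0.255 and 0.232, and Car3 had -0.349, with adjusted p-values of 0.389 or more by permutation.

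Within PBS the values were higher, at r = 0.94 for Lpl, 0.924 for Lep, 0.901 for Plin1 and 0.812 for Retn (exact permutation p = 0.00833, 0.0222, 0.0208 and 0.0833, n = 6). None of the 4 passed after adjustment over the 60 relations within groups, where the first 3 had an adjusted p of 0.222 and Retn a higher one. PBS replicate 6 was the lowest PBS library in the hair score and in all 4 genes. With Detergent A the same genes had r = 0.727, 0.582, 0.025 and 0.478, and with Detergent B 0.03, 0.435, -0.264 and -0.185. In the 8 libraries below the largest gap of the score, r was -0.008 for Lpl and -0.362 for Lep, and in the 10 above it 0.484 and 0.455. The low end of the score is near the floor. Krt33b, Krt34, Krt81 and Krt86 had a lowest level of 0 CPM, and the summed hair keratins one of 3.54 CPM. Log2 values that low rest largely on the prior count of 2 added before taking logs, so r below the gap says little.

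**Figure D3:**
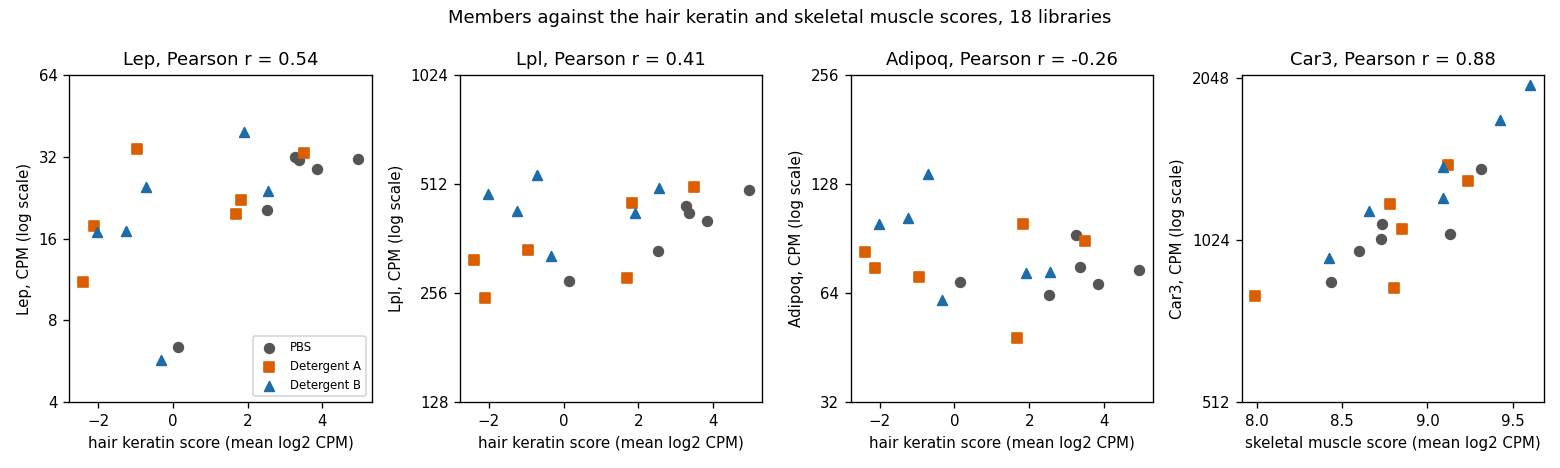
CPM of Lep, Lpl, Adipoq and Car3 (vertical log axes) against the mean log2 CPM of hair keratins (first 3 panels) or of skeletal muscle genes (last panel), with 1 point per library and treatments by colour and shape. Car3 rises with the muscle score in every treatment (r = 0.876), while Adipoq shows no such trend with the hair score (r = -0.255).

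The 10 genes were next compared among themselves over the 18 libraries. Of the 45 pairs, 26 passed at an adjusted p of 0.05 for Pearson's r by permutation, all positive, and 22 for Spearman's rho. Adipoq and Cidec were the most alike pair, with r = 0.864 and rho = 0.893 (adjusted p = 0.00045 and 0.000225, permutation), 0.883 without the 2 libraries farthest from the median and 0.875 centred on the group means. Plin1 and Retn followed at r = 0.821 and Plin1 and Lpl at 0.802 (adjusted p = 0.00075 for both, permutation). Adipoq, Cidec, Cfd, Lpl and Retn each passed with 7 of their 9 partners, and Plin1 and Fabp4 with 6.

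The remaining 3 genes stood apart from this block to different degrees. Car3 passed with Adipoq (r = 0.795), Cidec (0.694) and Cfd (0.622). Lep passed with Retn (r = 0.585, adjusted p = 0.0217) and Lpl (r = 0.546, adjusted p = 0.0316), but not by Spearman's rho (adjusted p = 0.0703 and 0.0916, permutation), and its r with Adipoq was 0.192. Plin4 passed with none, and its r with the other 9 ranged from -0.375 to 0.219. Of the 26 pairs, the lowest r was 0.344 without the 2 farthest libraries and 0.484 after centring on the group means, so the shared variation was present within treatments.

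**Figure D4:**
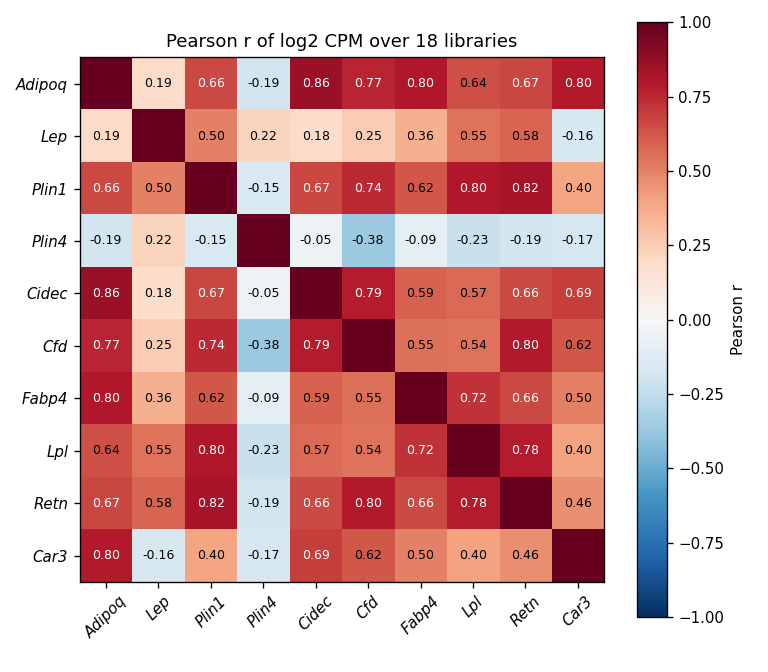
Pearson r of log2 CPM over 18 libraries for each pair of the 10 genes (colour scale from -1 to 1, values printed in the cells). A block of positive values joins Adipoq, Cidec, Cfd, Plin1, Retn, Lpl and Fabp4, while the Plin4 row holds values from -0.375 to 0.219.

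Among 13884 other named genes at 1 CPM or more, those whose pattern was most like the mean of the 10 standardised genes were Agt (angiotensinogen, r = 0.926 over 18 libraries), Abcd2 (a peroxisomal fatty acid transporter, 0.91), Slc7a10 (an amino acid transporter, 0.889), Cdo1 (cysteine dioxygenase, 0.886) and Dpt (dermatopontin, a matrix protein, 0.878). The least alike were Gsk3b, a kinase gene, at -0.787 and Lama1, a laminin gene, at -0.773. For single genes, Lpl was most like Prkar2b (0.932) and Igf1 (0.913), Retn most like Cdo1 (0.952) and Thrsp (0.917), and Cfd most like Clec3b (0.9) and Thrsp (0.895). Car3 was most like Pkia (0.942) and Eno3, the muscle enolase gene (0.934). Lep was most like Dph7 and Acvr1 (0.834 and 0.824), and Plin4 most like Tent4b and Pi4kb (0.82 and 0.77). The points share their library and its scaling, and these values were picked as the highest of many.

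A list of 48 other genes of the fat cell covered its transcription factors, lipases, lipid synthesis, uptake and hormone response, and all 48 were tested. With Detergent A 0 of 48 rose, beside 0.0535% of all genes, and 0 fell, beside 0.137%, with a median log2 fold change of 0.1 against -0.01 over all genes. With Detergent B 1 of 48 rose, beside 1.97% of all genes, and 0 fell, beside 1.08%, with a median of 0.2 against -0.01. For Detergent A 12 of the 48 had an unadjusted p under 0.05 by edgeR, beside 18.8% of all genes. For Detergent B it was 19 of the 48, beside 23.3%. Fold changes were above 1 for 29 of the 48 with Detergent A and for 38 with Detergent B. With Detergent B the log2 values of the 48 ranged from -0.815 to 0.596. The list is not restricted to genes that only fat cells make, and the part of other skin cells in these shifts was not tested. For Detergent B against Detergent A 0 of 48 passed. The gene that passed was Abhd5, the cofactor of the first triglyceride lipase, which is also needed for the lipid barrier of the epidermis. Abhd5 was at 131 ± 21.6 CPM with PBS, 186 ± 39.8 CPM with Detergent A and 198 ± 20.6 CPM with Detergent B (SD, n = 6). Its log2 fold change was 0.6 ± 0.13 (SE, adjusted p = 0.0293, edgeR) for Detergent B and 0.51 ± 0.13 (adjusted p = 0.0722, edgeR) for Detergent A. The count of 1 fell to 0 with the hair score as a covariate and without any one of PBS replicates 2, 3 or 5 or Detergent B replicates 2, 4, 5 or 6. The calls over all genes fell there too, from 514 in the main fit to 0 with that covariate. They were 30, 28 and 82 without PBS replicates 2, 3 and 5, and 87, 176, 99 and 153 without Detergent B replicates 2, 4, 5 and 6. The count among the 48 was 8 without PBS replicate 6, where 1888 of 16940 genes were called, and 4 without Detergent B replicate 3, with 1047 of 16923. It was 3 without Detergent B replicate 1 or Detergent A replicate 2, with 891 of 16967 and 720 of 16909 genes called. Summed keratinocyte markers ranged from 14630 to 29130 CPM with PBS, 19730 to 50280 CPM with Detergent A and 25960 to 45600 CPM with Detergent B. All 4 of these markers were detected, 1 of the 4 rose with Detergent B, beside 1.97% of all genes, and their part in the Abhd5 value was not tested.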

How the data were processed

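Bulk RNA of mouse skin was sequenced in 18 libraries, 6 each with PBS, Detergent A and Detergent B. Per library, the authors deposited 1 table of raw counts by Ensembl gene ID, whole numbers whose totals differ between libraries. The submitters' processing notes name STAR, featureCounts and the GRCm38.p5 build. Tool versions, annotation release and strand setting are not given in these notes. Of 41605 IDs, 41519 matched GENCODE M21 symbols. Krt85 was not analysed here.

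Counts were fitted with edgeR 4.0.16 in R 4.3.3 (default filter on low counts, TMM, robust quasi-likelihood, group as the only term, all 18 libraries), with Benjamini-Hochberg adjustment over 16836 genes and a threshold of 0.05. SE was the log2 fold change over the square root of F. Log2 CPM used a prior count of 2, and permutation tests 100000 two-sided resamples, or all orders within groups of 6. The fit and the permutation test were tested on simulated data. Depth limits precision, at 17312623 counts in the smallest library. No 2 libraries agreed within sampling noise.

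The members and lists were chosen with earlier results of these data known. Beyond the 10 members, genes were named if they passed in the list of other adipocyte genes, or were among the 5 with the highest or the 2 with the lowest r with the members' mean, or the 2 with the highest r with a single member (predicted genes and pseudogenes passed over). Alternatives were DESeq2 1.42.0, limma 3.58.1 with quality weights, other scalings and filters, the 12 libraries compared, a replicate block, hair and muscle covariates, and each library left out.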

Additional observations from a re-analysis of the deposited data

Results flagged for a closer look

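On the log2 scale, 3 values lay apart from the other 5 libraries of their group by a gap past Dixon's 95% critical value for groups of that size. Lep was at 6.37 CPM in PBS replicate 6, with a gap of 0.722 of the group's range, and that library was also the PBS library with the lowest hair keratin score. Plin1 was at 25.7 CPM in Detergent A replicate 1, with a gap of 0.701 of the range. The skeletal muscle score was 7.99 in Detergent A replicate 3, the lowest of the 18 libraries, with a gap of 0.632 of the range. In all, 36 sets of 6 libraries were looked at, and chance marks about 1 in 20 of them.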

How the results depend on the processing

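None of the 10 genes was called for Detergent A against PBS or for Detergent B against Detergent A under any of 29 alternatives, and for Detergent B against PBS the 1 call was Car3 in limma with quality weights. The counts over all genes moved far more. DESeq2 called 788 genes for Detergent A and 1385 for Detergent B, and limma 3914 and 5074. Detergent A gave 0 with the replicate block and 0 with the hair covariate. Detergent B gave 251 without a filter, 281 with the muscle covariate and 0 with the hair covariate. With each library left out in turn the counts ranged from 0 to 888 and from 28 to 1888, both highest without PBS replicate 6. Of the 48 other fat cell genes, DESeq2 called 3 for Detergent A and 6 for Detergent B. Its counts over all genes were 788 of 15855 and 1385 of 17974. Among the 48, limma called 14 and 16, beside 23.2% and 30.1% of all genes. For Detergent B 2 of the 48 were called in the 12 libraries compared, 2 with the replicate block and 0 with the hair covariate. Over all genes these settings called 737 of 16439, 377 of 16836 and 0 of 16836. With each library left out the counts among the 48 ranged from 0 to 5 and from 0 to 8, and this set of alternatives for the 48 genes was chosen after seeing the data. The cause of these shifts was not tested.

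No difference of the 10 genes had passed in the main fit, so any direction that turned was of a difference that had not passed. Those that turned are given here as log2 fold changes. For Detergent A, Lep was 0.022 with the replicate block, and with the hair covariate Lep was 0.564, Lpl 0.118, Retn 0.024 and Car3 -0.044. Fabp4 was -0.009 with upper quartile factors. For Detergent B, Lep was 0.462 and Cfd -0.014 with the hair covariate, Cfd -0.083 with the muscle covariate, and Plin1 -0.11, Cfd -0.099 and Retn -0.003 in limma. For Detergent B against Detergent A, Lep was 0.04 and Cidec -0.053 with the muscle covariate. Leaving out 1 library gave, for Detergent A, -0.008 to 0.179 for Adipoq, -0.318 to 0.021 for Lep, -0.06 to 0.192 for Cidec, -0.042 to 0.076 for Fabp4 and -0.028 to 0.142 for Car3. For Detergent B it gave -0.059 to 0.098 for Plin1 and -0.099 to 0.214 for Cfd, and between the detergents -0.393 to 0.083 for Lep and -0.052 to 0.18 for Cidec.

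The count of genes passing against the hair score was 0 under all 22 alternatives, and against the muscle score 1 under all 20. Pairs passing numbered 20 to 28 over 19 alternatives. Against the hair score, CPM on total counts gave r = 0.322 for Plin4, 0.126 for Cidec and 0.208 for Fabp4, and inner root sheath genes gave -0.079 for Cfd. Leaving out 1 library gave -0.09 to 0.154 for Cfd with hair, and with muscle -0.057 to 0.367 for Fabp4, -0.044 to 0.211 for Lpl and -0.012 to 0.126 for Plin1. Same-numbered libraries of different groups had correlations of -0.35 to 0.55, over 0.1 in 8 of 18 pairs. Their median was 0.02, against -0.06 for libraries of other numbers. For 6 libraries the best partner in the other groups had the same number. Such correlations cannot decide whether the numbers pair the libraries. The replicate block called none of the 10 genes. Lep, the gene with the fewest reads, had 114 counts in its lowest library.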

Other observations

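Levels relative to Adipoq were set against the hair keratin score for the other 9 genes. This set of ratios was chosen after the values were seen. All 9 share Adipoq, whose own r with the score was -0.255, so they are not independent of each other. Taken alone, Lpl, Lep and Plin1 had r = 0.408, 0.535 and 0.232 and did not pass. The hair and muscle scores had r = -0.349 with each other. The part of Adipoq and of muscle in the ratios was not tested. The ratio of Lpl to Adipoq in CPM had a Pearson r with the score, on the log2 scale, of 0.784 (adjusted p = 0.00198 over the 9 ratios) and a Spearman rho of 0.767 (adjusted p = 0.00396), by permutation over 18 libraries. Leaving out the 2 libraries whose score was farthest from the median gave 0.699, centring on the group means gave 0.856, and with each library left out in turn it lay between 0.747 and 0.819. Within PBS, Detergent A and Detergent B it was 0.93, 0.846 and 0.825. The ratio itself ranged from 3.3 in Detergent A replicate 4 to 6.79 in Detergent B replicate 3.

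The ratio of Lep to Adipoq had r = 0.638 (adjusted p = 0.022) and rho = 0.598 (adjusted p = 0.0304, permutation), with 0.93, 0.485 and 0.729 within the groups. It was 0.0927 in PBS replicate 6 and 0.0935 in Detergent B replicate 6, against 0.542 in Detergent B replicate 1, the highest. The ratio of Plin1 to Adipoq had r = 0.592 (adjusted p = 0.031, permutation), with 0.956, -0.068 and 0.512 within the groups. Its r was 0.556 without the 2 libraries of farthest score and 0.455 centred on the group means. The other 6 ratios did not pass, with r from -0.158 for Car3 to 0.436 for Retn (adjusted p of 0.16 or more, permutation).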
